A study of Homo sapiens with 6 samples.

Results

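Epithelial cells keep their identity through a small set of transcription factors, splicing regulators and surface proteins, and 10 of these genes were followed here in CaSki cells: ELF3, GRHL1, GRHL2, OVOL1, OVOL2, ESRP1, ESRP2, EPCAM, RAB25 and ST14. They were chosen by name for their role, with earlier results of these data known. A gene was measured where a probe set of the array was annotated with its symbol and no other, which held for 9 of the 10 genes and 17 probe sets, of 19775 genes and 54675 probe sets in all. ESRP2 had no probe set annotated with its symbol alone and was not analysed here. Where a gene had several probe sets, the one with the highest mean over the 6 arrays represented it.

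CaSki is an established line from a human cervical squamous cell carcinoma that carries integrated papillomavirus DNA. The study set 3 arrays of cells given recombinant TGF-b1 at 2 ng/mL against 3 arrays of cells in medium without it, and both groups shared the same RPMI1640 medium with fetal bovine serum. The arrays were numbered 1 to 3 in each group. All came from 1 cell line. The labels tell neither the time of exposure nor whether the arrays came from separate cultures, so a p-value reflects the spread among these arrays, part of which may be technical.

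As background, ELF3 is an ETS-family transcription factor found in epithelia. The Grainyhead-like factors GRHL1 and GRHL2 bind and open regulatory regions of junction genes, and GRHL2 and the mesenchymal repressor ZEB1 hold each other down. OVOL1 and OVOL2 are zinc-finger repressors that act on ZEB1 and other mesenchymal genes. ESRP1 and ESRP2 are RNA-binding proteins that impose the epithelial form of transcripts such as FGFR2, CD44 and CTNND1. EPCAM is a surface adhesion molecule, RAB25 is a RAB11-family GTPase of apical recycling, and ST14 encodes matriptase, a membrane serine protease. TGF-β is known to lower parts of this programme during epithelial-mesenchymal transition.

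Promoter windows ran from 250 bases before to 50 bases after the annotated gene start. They came from a RefSeq table, with all windows of a single chromosome left out beforehand. After this, 3 of the genes had a window (ELF3, GRHL1 and RAB25), and a gene not shown may still have one. Every window found for these genes is shown, whatever the response of the gene. Promoters of this group are known targets of SNAI and ZEB repressors. The 3 windows lie on the plus strand of build GRCh38.p14, at chr1:202010337-202010636 for ELF3, chr2:9951443-9951742 for GRHL1 and chr1:156060910-156061209 for RAB25. Capitals mark the E-box CAGGTG or its reverse complement CACCTG, to which SNAI and ZEB proteins bind.
ELF3: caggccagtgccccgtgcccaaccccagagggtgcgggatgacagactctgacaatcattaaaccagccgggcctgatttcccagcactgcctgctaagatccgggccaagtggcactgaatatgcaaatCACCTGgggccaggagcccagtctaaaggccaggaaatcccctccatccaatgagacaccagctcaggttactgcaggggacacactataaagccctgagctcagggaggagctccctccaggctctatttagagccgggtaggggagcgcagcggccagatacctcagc
GRHL1: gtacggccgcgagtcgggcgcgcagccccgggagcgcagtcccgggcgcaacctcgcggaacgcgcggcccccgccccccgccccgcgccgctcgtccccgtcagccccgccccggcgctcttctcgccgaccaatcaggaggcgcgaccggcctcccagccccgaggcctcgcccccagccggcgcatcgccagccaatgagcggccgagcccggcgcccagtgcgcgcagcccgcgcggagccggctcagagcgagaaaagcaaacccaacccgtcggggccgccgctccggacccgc
RAB25: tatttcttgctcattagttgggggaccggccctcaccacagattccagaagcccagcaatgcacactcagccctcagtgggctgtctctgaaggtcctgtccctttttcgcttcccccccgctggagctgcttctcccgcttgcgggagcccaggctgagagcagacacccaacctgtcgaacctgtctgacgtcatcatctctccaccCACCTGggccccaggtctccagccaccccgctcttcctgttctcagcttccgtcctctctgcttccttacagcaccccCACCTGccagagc

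The ELF3 window held 1 E-box, starting 120 bases before the gene start. The RAB25 window held 2, starting 41 bases before and at base 38 of the gene, and the GRHL1 window held 0. An E-box of these letters, on either strand, stood in 20.6% of 35116 promoter windows of this length, with the same chromosome left out. The Grainyhead motif AACNNGTT, which is its own reverse complement, was found in 3.52% of the windows and in 0 of these 3. G and C made up 59.0% of the ELF3 window, 79.7% of the GRHL1 window and 60.7% of the RAB25 window. A match is a match of letters only, and binding was not measured.

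Of the 9 measured genes, 3 fell with TGF-b1 and 0 rose (limma, adjusted p below 0.05 over 19775 genes). The 3 that fell were ELF3, GRHL1 and EPCAM. Of all genes tested, 4.47% were called lower and 4.03% higher. All 9 genes lay above the median level of genes, and of the genes above it 7.79% were called lower in this fit. At an unadjusted p below 0.05, 5 of the 9 were lower and 0 higher, against 12.6% and 10.6% of all genes. In 6 of the 9, the 3 TGF-b1 arrays all lay below the 3 untreated arrays, and in 0 of the 9 all above, against 16.3% and 12.9% of all genes. The median difference of the 9 genes was -0.23 (log2, TGF-b1 minus untreated), against -0.00271 for all genes. In bulk RNA, fewer cells expressing a gene and less RNA per cell cannot be told apart.

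**Figure D1:**
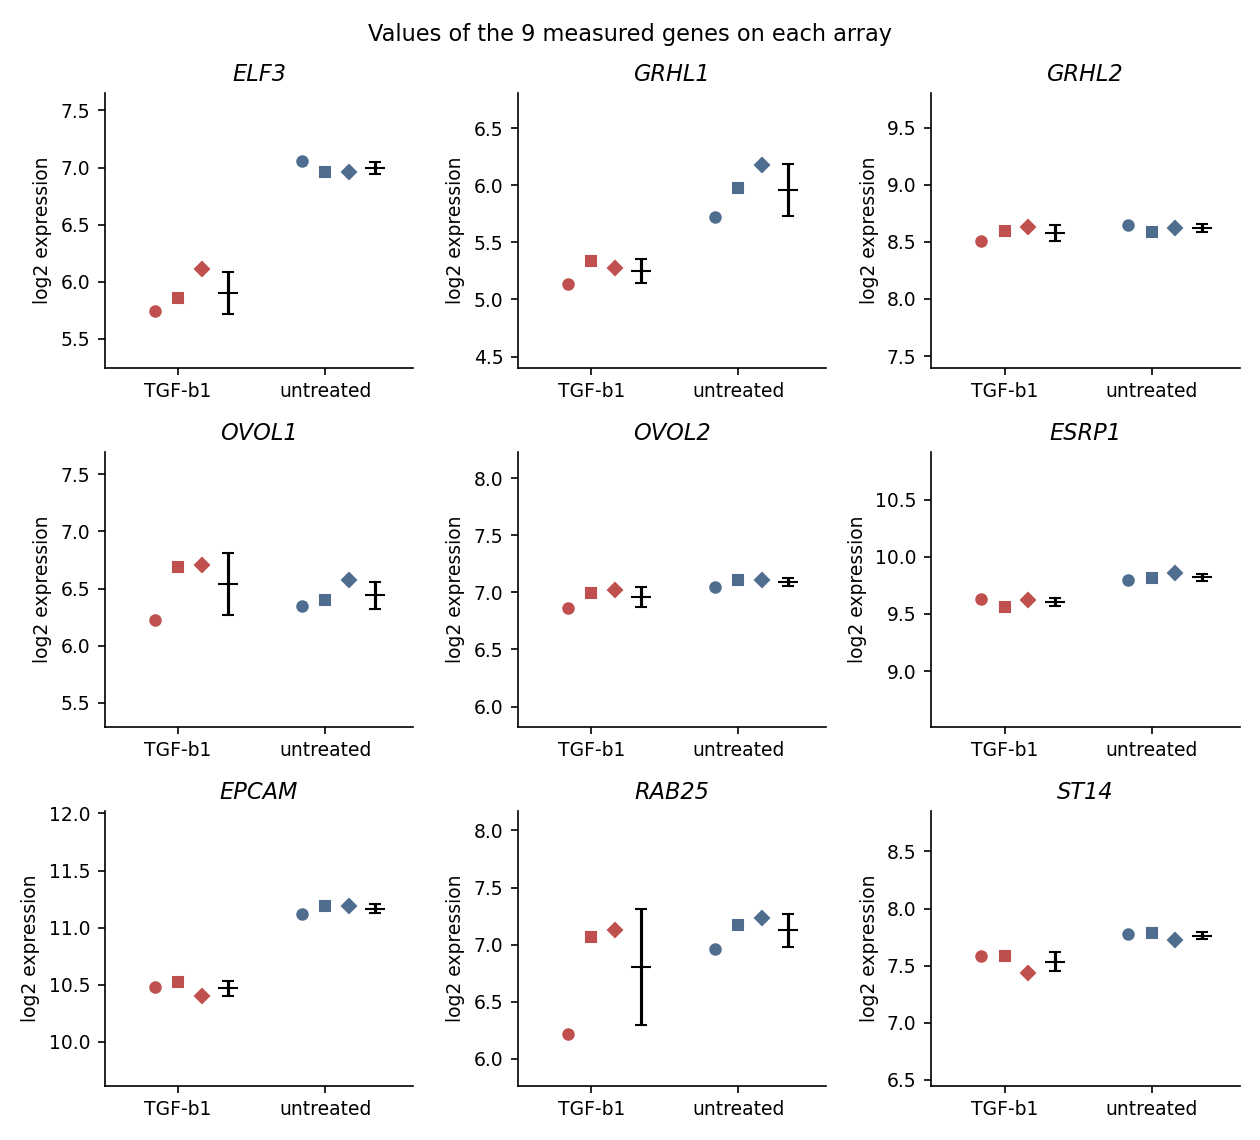
Log2 expression (vertical axis, of equal height in every panel) of each gene on the 3 TGF-b1 arrays and the 3 untreated arrays; the circle, square and diamond are the arrays numbered 1, 2 and 3, and the bar beside them is the mean ± SD (n = 3). ELF3, GRHL1 and EPCAM stand clearly apart between the groups, ESRP1, ST14 and OVOL2 by a small gap, and a single TGF-b1 array carries most of the RAB25 difference.

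ELF3 had log2 values of 5.74, 5.86 and 6.11 on the TGF-b1 arrays, against 7.05, 6.97 and 6.96 on the untreated arrays. The lowest untreated array lay far above the highest TGF-b1 array, and the TGF-b1 arrays were the more spread of the 2 groups. ELF3 averaged 5.90 ± 0.187 with TGF-b1 and 6.99 ± 0.0519 without it (SD, n = 3 each), 2.13-fold lower with a difference of -1.09 ± 0.10 (SE, limma adjusted p = 0.000622). Among 884 genes called lower, its fall was number 21 by size. All 3 ELF3 probe sets fell: the dimmer ones, at mean levels of 5.94 and 5.31, differed by -0.89 and -0.59 (adjusted p = 0.00231 and 0.0152 over 54613 probe sets). The size of the fall thus depended on the probe set, and its direction and call did not.

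GRHL1 had values of 5.13, 5.34 and 5.27 on the TGF-b1 arrays, against 5.72, 5.98 and 6.18 on the untreated arrays. The groups did not overlap, and the array numbered 1 was the lowest of each. Its means were 5.25 ± 0.104 with TGF-b1 and 5.96 ± 0.229 without (SD, n = 3 each), 1.64-fold lower with a difference of -0.71 ± 0.12 (SE, limma adjusted p = 0.0108). The other GRHL1 probe set, at a mean level of 3.80 and so below the median gene at 5.31, differed by -0.04 with a 95% interval from -0.44 to 0.36. Taking the mean of both probe sets, the difference was -0.38 and was not called (adjusted p = 0.125), nor was GRHL1 called when limma's treat tested against a fold of 1.2 (adjusted p = 0.126).

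GRHL2, the other Grainyhead factor, read 8.50, 8.59 and 8.63 on the TGF-b1 arrays, against 8.65, 8.58 and 8.62 on the untreated arrays. The 2 groups lay over each other. The difference was -0.04 (95% interval from -0.20 to 0.12, limma adjusted p = 0.768). To compare the response of the 2 factors directly, GRHL2 was subtracted from GRHL1 on each array. This within-array difference was -3.37, -3.26 and -3.36 with TGF-b1, against -2.93, -2.60 and -2.45 without it. GRHL1 was lower relative to GRHL2 on every TGF-b1 array than on any untreated array, by -0.67 on average (two-sided exact permutation test, p = 0.1, the lowest that 3 against 3 arrays allow; adjusted p = 0.2 over the 2 pairs of related genes compared).

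Neither OVOL gene passed. OVOL1 read 6.22, 6.69 and 6.71 on the TGF-b1 arrays, against 6.35, 6.40 and 6.58 on the untreated arrays. Its values overlapped, and its TGF-b1 array 1 was the lowest of the 6. The difference was 0.10 (95% interval from -0.22 to 0.41, limma adjusted p = 0.724), and 0.25 without that array. OVOL2 read 6.86, 6.99 and 7.02 on the TGF-b1 arrays, against 7.05, 7.11 and 7.11 on the untreated arrays. The groups did not overlap, yet only by a narrow gap, and the difference of -0.13 was not called (95% interval from -0.30 to 0.04, limma adjusted p = 0.339). The dimmer probe sets differed by 0.02 for OVOL1 and by -0.09 for OVOL2. OVOL1 minus OVOL2 within an array averaged -0.418 ± 0.190 with TGF-b1 and -0.646 ± 0.0986 without (SD, n = 3 each), 0.23 apart. A two-sided exact permutation test gave p = 0.2, and since 0.1 is the lowest it can give, it could not have passed. The gap was 0.34 without TGF-b1 array 1.

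ESRP1, the splicing regulator, read 9.63, 9.56 and 9.62 on the TGF-b1 arrays, against 9.79, 9.81 and 9.85 on the untreated arrays. All TGF-b1 values lay below all untreated values, with little spread in either group. The difference was small, at -0.22 with a 95% interval from -0.37 to -0.06, and was not called over all genes (limma adjusted p = 0.0928). Its other probe set, at a mean level of 8.80, differed by -0.31 (adjusted p = 0.110 over probe sets), again with no overlap between the groups. The ESRP1 call depended on the setting: it passed when only genes above the median level were tested (adjusted p = 0.0219), with a trended and robust variance (adjusted p = 0.0109), with the mean of both probe sets (adjusted p = 0.0492) and when only genes with a mean above 5 were tested (adjusted p = 0.0263).

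EPCAM, the adhesion molecule, read 10.48, 10.52 and 10.40 on the TGF-b1 arrays, against 11.12, 11.19 and 11.19 on the untreated arrays. The spread within each group was small beside the gap between them. EPCAM averaged 10.47 ± 0.0623 with TGF-b1 and 11.17 ± 0.0378 without (SD, n = 3 each), 1.62-fold lower with a difference of -0.70 ± 0.07 (SE, limma adjusted p = 0.000948). Of all genes, 0.632% were called lower by at least this difference. EPCAM had a single probe set, whose suffix marks sequence shared between transcripts, so its fall has no second probe set beside it.

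RAB25 read 6.22, 7.07 and 7.13 on the TGF-b1 arrays, against 6.97, 7.18 and 7.24 on the untreated arrays. One array, TGF-b1 array 1, lay far below the rest, and the other TGF-b1 arrays fell among the untreated values. The difference was -0.32 (95% interval from -0.84 to 0.19, limma adjusted p = 0.443), and it was -0.03 without TGF-b1 array 1. A sign of RNA quality, the mean log2 ratio of 3' to 5' control probe sets for GAPDH and ACTB, was also highest on the arrays numbered 1, at 1.15 for TGF-b1 array 1 and 1.19 for untreated array 1, and 0.690 to 0.863 on the other 4. Each was also the lowest of its group for RAB25, GRHL1, OVOL1 and OVOL2. The part of this signal in those values was not tested.

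ST14 read 7.59, 7.58 and 7.44 on the TGF-b1 arrays, against 7.78, 7.79 and 7.73 on the untreated arrays. The groups did not overlap, and all untreated arrays read alike. The difference was -0.23 with a 95% interval from -0.40 to -0.06, and was not called (limma adjusted p = 0.107). Like ESRP1, it passed when only genes above the median level were tested (adjusted p = 0.0307), when only genes with a mean above 5 were tested (adjusted p = 0.0360) and with a trended and robust variance (adjusted p = 0.0426). Under each of these 3 settings 5 of the 9 genes were called lower, where 15.0%, 13.3% and 7.72% of the genes tested were called lower. The other ST14 probe sets, with means of 6.11 and 4.04, gave -0.13 and -0.07 and did not pass.

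**Figure D2:**
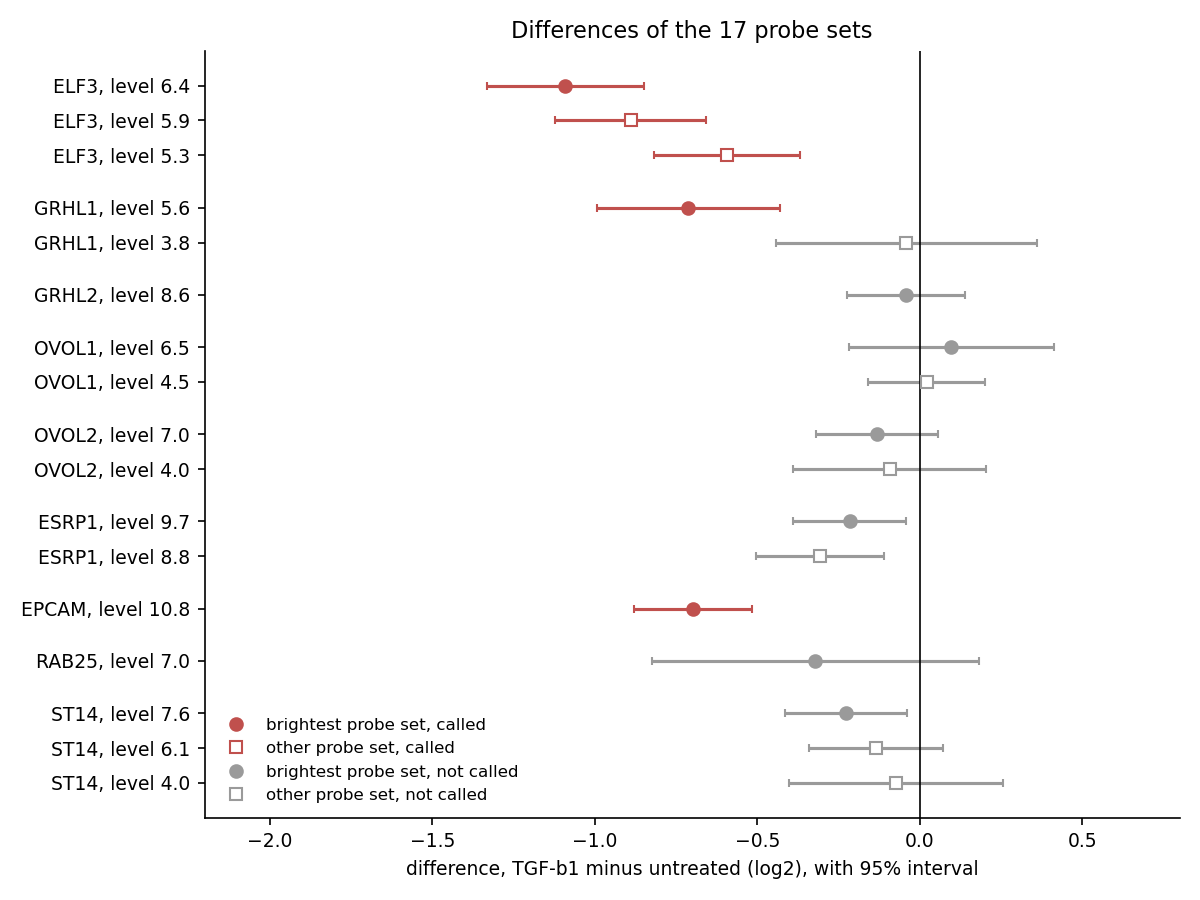
Difference between TGF-b1 and untreated arrays (horizontal axis, log2) for all 17 probe sets, with 95% intervals; the label gives each probe set's mean level, filled circles are the brightest probe set of a gene, open squares the others, and red marks an adjusted p below 0.05 over 54613 probe sets. The 5 called probe sets are the 3 of ELF3, the brighter one of GRHL1 and that of EPCAM.

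Of the 17 probe sets, 5 were called lower and 0 higher when all 54613 probe sets were tested one by one, where 1.55% were called lower and 1.69% higher. At an unadjusted p below 0.05, 8 of the 17 were lower and 0 higher, against 8.84% and 7.89% of all probe sets. Probe sets of a gene share its transcripts, so they are no independent evidence.

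The patterns of the 3 genes that fell were alike over the 6 arrays, with Pearson r of 0.953 between ELF3 and EPCAM, 0.941 between GRHL1 and EPCAM and 0.905 between ELF3 and GRHL1. This likeness was not particular to these 3 genes. With EPCAM, r was 0.957 for ESRP1, 0.935 for ST14 and 0.767 for OVOL2, none of which was called. For RAB25, GRHL2 and OVOL1, r with EPCAM was 0.455, 0.384 and -0.272. These values describe arrays that fall into 2 groups, and a shared difference between the groups gives most of such an r. Among 9887 genes above the median level, those with the pattern most like ELF3 were FAM111B, SLBP, which binds histone messenger RNA, and SOD1, each with r of 0.998. SOD1 differed by only -0.15 and was not called (adjusted p = 0.225), so likeness of pattern says nothing of size. Most like GRHL1 were YBX3, ELK4 and SYT14, with r of 0.998, 0.996 and 0.996. Most like EPCAM were ADORA2B, an adenosine receptor, SYTL2, an effector of RAB27, and the chemokine CXCL8, each with r of 0.999. SYTL2 was lower by 1.22 on the log2 scale (difference -1.22 ± 0.08, SE, limma adjusted p = 0.000124).

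**Figure D3:**
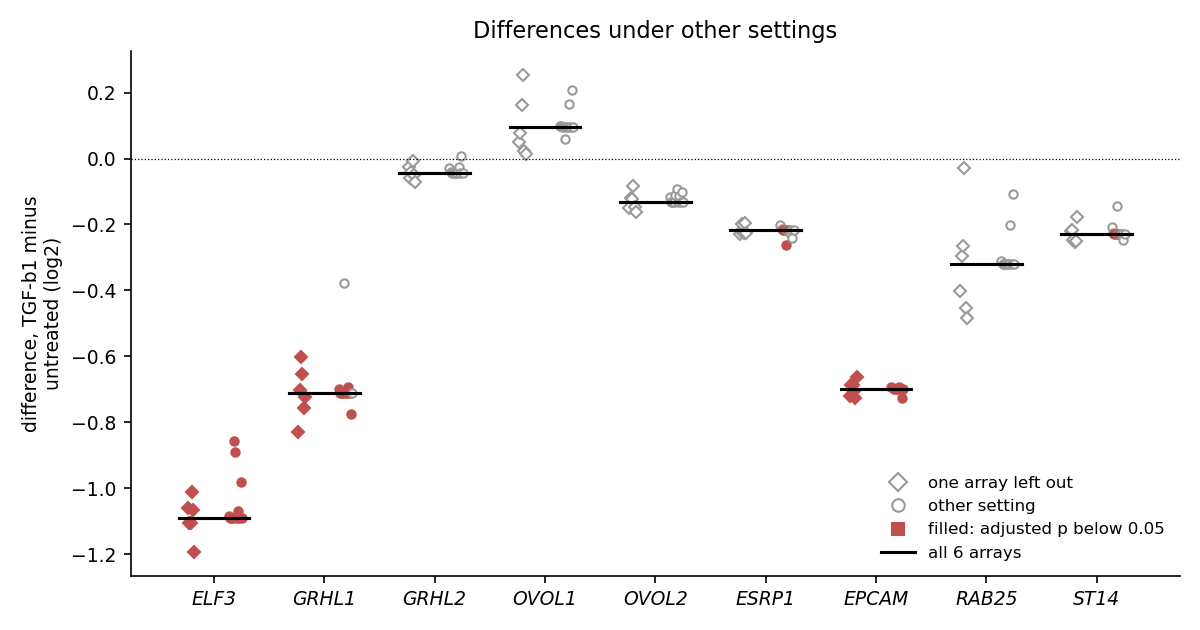
Difference between TGF-b1 and untreated arrays (vertical axis, log2) for the 9 genes under other settings; the bar is the value from all 6 arrays, diamonds leave out 1 array each, circles are the other settings, and filled red symbols passed an adjusted p below 0.05. ELF3 and EPCAM passed under every setting run, and RAB25 moved close to 0 without TGF-b1 array 1.

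ELF3 passed in 17 of 17 and EPCAM in 16 of 16 alternative settings, including the removal of any 1 array. GRHL1 passed in 15 of 17. When single arrays were left out, the difference ranged from -1.19 to -1.01 for ELF3, from -0.83 to -0.60 for GRHL1 and from -0.73 to -0.66 for EPCAM. The highest adjusted p in these fits was 0.00496, 0.0455 and 0.00776 in the same order of genes.

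For this and the lists below, the shares over all genes are 4.47% called lower and 4.03% higher. At an unadjusted p below 0.05 they are 12.6% and 10.6%. Relatives of these genes were mostly dim, with 3 of 13 measured above the median gene. Of the 13 family relatives 1 fell and 0 rose (2 and 0 at an unadjusted p below 0.05), with a median difference of -0.01 (log2). The fall was that of EHF, an ETS factor of epithelia like ELF3. EHF read 9.88, 9.74 and 9.82 on the TGF-b1 arrays, against 10.36, 10.35 and 10.39 on the untreated arrays. The groups stood well apart, with a difference of -0.55 ± 0.07 (SE, limma adjusted p = 0.00293), and 2 of its 5 dimmer probe sets also passed, at -0.75 and -0.95. The EHF call was lost against a fold of 1.2 (adjusted p = 0.0845). ELF5, another ETS factor of epithelia, lay at 3.10 and 3.20 in TGF-b1 and untreated cells and was not called. GRHL3 was as dim, at 2.97 with TGF-b1 and 2.88 without.

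Genes around the protease matriptase did not pass by their brightest probe sets. Of 7 measured inhibitors, partners and substrates 0 rose and 0 fell (limma; 2 and 1 at an unadjusted p below 0.05), with a median of -0.03. SPINT1, which encodes the inhibitor HAI-1, differed by 0.28 ± 0.10 (SE, adjusted p = 0.141) with TGF-b1 values above all untreated values, and its other probe set differed by -0.0016. SPINT2, the related inhibitor, differed by 0.0035 and PRSS8, the protease prostasin that acts with matriptase, by -0.03. SCNN1A, a subunit of the epithelial sodium channel, differed by -0.19 on its brightest probe set (adjusted p = 0.273), but its next probe set, at a mean level of 5.37, fell by 0.72 on the log2 scale (adjusted p = 0.0163 over probe sets). SCNN1A was also called lower with the mean of its probe sets, at -0.38 (adjusted p = 0.0109). MET, the receptor of hepatocyte growth factor, differed by 0.24 (adjusted p = 0.0741) and was called higher in 4 of the other settings.

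Among 10 measured partners and proteases of EPCAM 1 rose and 1 fell (3 and 2 at an unadjusted p below 0.05), with a median of 0.00589. CLDN7, a claudin that binds EPCAM in the membrane, read 8.88, 9.08 and 9.10 on the TGF-b1 arrays, against 9.45, 9.47 and 9.38 on the untreated arrays. It was lower than in untreated cells on every TGF-b1 array, by -0.42 ± 0.08 (SE, limma adjusted p = 0.0205), but the call was lost without any 1 of the untreated arrays (adjusted p up to 0.0792). FHL2, a LIM-domain coactivator that joins the cleaved EPCAM tail in the nucleus, read 10.83, 10.85 and 10.88 on the TGF-b1 arrays, against 10.10, 10.12 and 10.16 on the untreated arrays. FHL2 thus rose, by 0.73 ± 0.07 (SE, adjusted p = 0.000563), in 6 of 6 fits without 1 array. ADAM17 and PSEN2, of the protease steps that cleave EPCAM, differed by -0.01 and 0.02. ADAM10, another of these proteases, differed by 0.20 with all TGF-b1 values above all untreated values and was not called (adjusted p = 0.210), and its other probe sets differed by 0.03 each.

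Of 10 RAB25 relatives and effectors 1 rose and 0 fell (3 and 2 at an unadjusted p below 0.05), with a median of -0.02. The rise was that of CLIC3, which works with RAB25 in returning integrins from late endosomes. CLIC3 read 5.98, 6.48 and 6.62 on the TGF-b1 arrays, against 4.67, 4.42 and 4.70 on the untreated arrays. The groups lay far apart, with a difference of 1.77 ± 0.16 (SE, limma adjusted p = 0.000614), and TGF-b1 array 1 was again the lowest of its group. Untreated levels lay below the median gene, where the array method compresses differences, so the size of the rise is uncertain. RAB11A, the closest relative, differed by -0.05 and RAB11FIP1, a shared effector, by -0.23 (adjusted p = 0.144).

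The level of transcripts whose splicing ESRP proteins control was examined next. Of 10 measured, 0 rose and 0 fell (limma; 2 and 2 at an unadjusted p below 0.05), with a median of 0.00304. FGFR2 differed by -0.08, CD44 by 0.20 and ENAH by 0.17 (adjusted p = 0.533, 0.147 and 0.197). RALGPS2, an exchange factor for RAL GTPases, differed by -0.37 (adjusted p = 0.0653) and was called lower without TGF-b1 array 1, at -0.46 (adjusted p = 0.0341), and under 5 other settings. Its other probe sets differed by -0.26 to -0.08 and did not pass in limma over all probe sets. The brightest of them, at a mean level of 7.34, differed by -0.14. CD44 was called higher when only genes above the median level were tested (adjusted p = 0.0474) and with a trended and robust variance (adjusted p = 0.0195). The other 12 CD44 probe sets differed by -0.19 to 0.17 and the other 10 FGFR2 probe sets by -0.19 to 0.17, and 0 of these 22 passed in limma over all probe sets (0 also at an unadjusted p below 0.05). Such probe sets lie mostly near the 3' end and were not matched to exons, so the choice of exons was not measured.

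**Figure D4:**
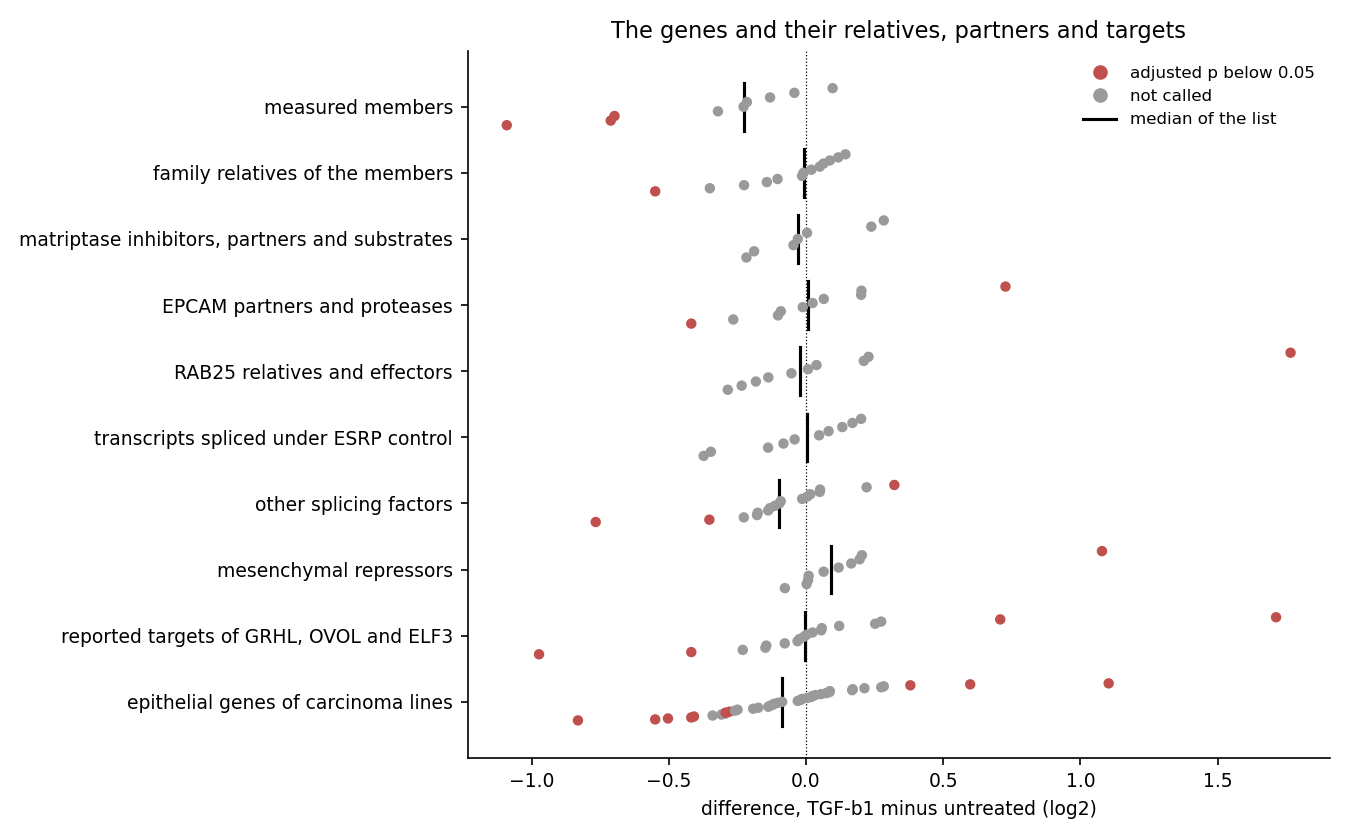
Difference between TGF-b1 and untreated arrays (horizontal axis, log2) for the measured genes and for the lists of relatives, partners and targets, 1 point per gene, with the median of each list as a black bar; red marks an adjusted p below 0.05. The 9 genes have a median of -0.23, while the medians of the other lists lie between -0.10 and 0.09, and a gene can stand in more than 1 list.

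Other splicing factors of epithelial and mesenchymal states moved in both directions: of 17 measured 1 rose and 2 fell (2 and 5 at an unadjusted p below 0.05), with a median of -0.10. RBM47, an RNA-binding protein of epithelia, read 6.87, 7.10 and 7.24 on the TGF-b1 arrays, against 7.72, 7.87 and 7.92 on the untreated arrays. It fell by 0.77 on the log2 scale (SE 0.11, limma adjusted p = 0.00452), and its next brightest probe set fell by 0.73, while the probe set without shared sequence, at a level of 3.64, differed by -0.17 and was not called (adjusted p = 0.425 when probe sets of shared sequence were left out). The 2 remaining RBM47 probe sets differed by -0.06 and 0.02. RBFOX2, which favours mesenchymal exons, differed by 0.32 and HNRNPF by -0.35 (adjusted p = 0.0274 and 0.0275). Both calls were fragile: RBFOX2 passed in 0 of 6 and HNRNPF in 1 of 6 fits without 1 array, and the RBFOX2 probe set without shared sequence, at a level of 3.30, differed by -0.28.

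Of 10 mesenchymal repressors that oppose these genes, 1 rose and 0 fell (2 and 0 at an unadjusted p below 0.05), with a median of 0.09. SNAI2, which encodes Slug, read 10.85, 10.83 and 10.89 on the TGF-b1 arrays, against 9.74, 9.74 and 9.85 on the untreated arrays, and was higher by 1.08. ZEB1 and ZEB2 stood at 3.33 and 3.40 with TGF-b1 and at 3.33 and 3.39 without it, below the median gene in both groups. The 3 dimmer ZEB1 probe sets gave differences of 0.0028 to 0.38, and the 4 of ZEB2 gave -0.13 to 0.53. None of these 7 was called by limma over all probe sets, and at an unadjusted p below 0.05 there were 1 of ZEB1 and 2 of ZEB2, all higher.

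Reported targets of the GRHL, OVOL and ELF3 factors did not follow a single direction. Of 18 measured 2 rose and 2 fell (4 and 2 at an unadjusted p below 0.05), with a median of -0.0029. PTGS2, which ELF3 can activate, rose by 1.71 ± 0.08 and MYC, which OVOL1 represses in mouse skin, fell by 0.97 on the log2 scale (SE 0.07, limma adjusted p = 2.12e-05 and 0.000221). VIM, which encodes vimentin, was higher by 0.71, a call that held in 2 of 6 fits without 1 array (highest adjusted p = 0.0654), and CLDN7 was lower as above. CDH1, which encodes E-cadherin and is a target of GRHL2, differed by 0.06, ERBB3 by 0.02 and CLDN4 by 0.27 (adjusted p = 0.782, 0.889 and 0.0910). TGFBR2, reported to be raised by ELF3, differed by -0.02 (adjusted p = 0.872).

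Of 39 measured epithelial genes that carcinoma lines are known to express together with these regulators, 7 fell, 3 rose and 29 did not pass (12 lower and 7 higher at an unadjusted p below 0.05), with a median of -0.09. Over all genes 4.47% were called lower and 4.03% higher. Of the 39 genes 31 lay above the median level of genes, where 7.79% were called lower. Only 4 of the 39 fell without untreated array 1, 4 without untreated array 2 and 4 without untreated array 3. FXYD3, a regulator of the sodium pump, read 8.49, 8.58 and 8.67 on the TGF-b1 arrays, against 9.30, 9.53 and 9.40 on the untreated arrays. It fell by 0.83 on the log2 scale (SE 0.09, limma adjusted p = 0.00108), and EHF and CLDN7 were among the other falls. The falls of MAP7 and CRB3 held in 0 of 6 fits without 1 array. Those of PRRG4 and SH3YL1 held in 6 of 6, but the SH3YL1 call was lost with the mean of its probe sets. INAVA, which stabilises junctions of intestinal epithelium, rose by 1.10 ± 0.15 and the keratin gene KRT8 by 0.60 ± 0.08 (SE, adjusted p = 0.00412 and 0.00342). The third rise, AP1M2, a sorting adaptor subunit of epithelia, differed by 0.38, a call that held in 2 of 6 fits without 1 array (highest adjusted p = 0.111).

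The label of the cells was checked against markers. Of 9 measured squamous and epithelial markers 8 lay above the median gene, KRT14 and KRT8 rose, and 0 fell (limma). At an unadjusted p below 0.05, 3 of these were higher and 0 lower. Of 12 fibroblast markers 2 lay above the median gene, COL1A1 and FAP, and these 2 rose, by 1.58 and 0.89. At an unadjusted p below 0.05, 3 of the 12 were higher and 0 lower, with a median difference of 0.07. The other COL1A1 probe sets were split. That at a level of 5.38 rose by 1.29, while those at 6.40, 4.95 and 2.28 differed by 0.07, 0.04 and 0.26 and were not called over all probe sets. The summed level of the fibroblast list was 10.01 to 10.12 with TGF-b1 and 8.88 to 9.06 without (log2). Of 11 endothelial and immune markers 2 lay above the median gene, KDR was called higher, a call that held in 0 of 6 fits without 1 array, and CDH5 was called lower, which held in 1 of 6. At an unadjusted p below 0.05, 3 of the 11 were higher and 1 lower. The summed level of this list was 7.93 to 7.98 with TGF-b1 and 7.81 to 7.86 without. The part of other cells in the falls of ELF3, GRHL1 and EPCAM was not tested.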

How the data were processed

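The authors deposited 1 log2 expression value for each probe set on each array, made with Affymetrix Expression Console and RMA, per the submitters' processing notes, which name no version here. That the scale is log2 was read from the values, which ran from 1.57 to 14.5. RMA equalises arrays and compresses differences of dim probe sets. No detection call was used, and 3 arrays per group limit the precision.

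Names came from the platform annotation, updated through RefSeq gene numbers. Probe sets with several symbols (1801) were left out. TGF-b1 was set against untreated in limma 3.58.1 under R 4.3.3, using lmFit and eBayes without a covariate or filter, and p-values were adjusted by Benjamini-Hochberg over 19775 genes, or over 54613 probe sets where stated. The fit was tested on simulated data. A gene was called at an adjusted p below 0.05. Named genes were the measured members, the called genes of each list (at most 4, by p), close relatives and partners, and the 3 genes with the most similar pattern. AP1M2, MAP7, CRB3, PRRG4, SH3YL1, TGFBR2, CDH1, ERBB3, CLDN4, FGFR2, CD44, ENAH, RALGPS2, SCNN1A, MET, ADAM10, ZEB1 and ZEB2 were named after values were seen. The members and lists were chosen with earlier results of these data known. Gene lists were described by counts and medians, without a test. For pairing by array number, the correlation of deviations was 0.200, 0.0560 and 0.0907 for the 3 numbers; 2 were under the minimum of 0.1, so no block was used. Between arrays of unlike number this correlation ran from -0.135 to 0.0652.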

Additional observations from a re-analysis of the deposited data

How the results depend on the processing

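With 3 of the 9 genes lower and 0 higher in the reported fit, 5 were lower when only genes above the median level were tested, 5 when only genes with a mean above 5 were tested, and 5 with a trended and robust variance. In these settings more genes passed in all. The count lay between 2 and 3 under the other 14 settings, and without single arrays it was 3 throughout, with 0 higher in all 17. With the replicate number as a block it was 3 lower and 0 higher; no call of a member changed under the block. With the mean of all probe sets the 3 called lower were ELF3, EPCAM and ESRP1, so GRHL1 was lost and ESRP1 gained. Without the probe sets whose suffix marks shared sequence, EPCAM could not be fitted and 2 of 8 genes were lower. Of 152 recomputed differences, 1 changed sign: GRHL2 differed by 0.00915 without both arrays numbered 1. The GRHL1 minus GRHL2 difference ran from -0.804 to -0.563 without single arrays and was -0.334 with the mean of all probe sets; OVOL1 minus OVOL2 ran from 0.169 to 0.338. Of the counts of called genes in the other lists, 15 were above 0 in the reported fit; recomputed 255 times in all, they stayed within 1.5 times in 177. Counted separately, with changes of any size, 82 of the 255 were lower than in the reported fit and 18 higher. The 9 counts of 0 became larger than 0 in 15 of 153. The ESRP1 and ESRP2 pair was not run, since ESRP2 had no probe set annotated with its symbol alone. RMA values of dim probe sets, such as those of ZEB1, ZEB2, GRHL3 and the second GRHL1 probe set, lie where differences are compressed.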
